A study of Homo sapiens with 44 samples.

Results

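RNA of MOLM-14 cells that carried a short hairpin against GSK3A was set beside RNA of MOLM-14 cells with a scrambled control hairpin. The arrays were chosen by their labels: 2 arrays of GSK3A construct 5 and 2 arrays of GSK3A construct 6 (called hairpin 5 and hairpin 6 here), against 3 arrays of the control hairpin. These are 7 of the 44 arrays of the series, which holds 4 human acute myeloid leukemia (AML) lines with the same design. Each line had 4 GSK3A arrays, 4 arrays of hairpins against the paralog GSK3B, and 3 control arrays. All cells, control cells included, were grown in RPMI medium with serum, infected, and put under puromycin at 1 µg/mL from 48 h after infection, and RNA was taken 48 h after selection began. Both hairpins were compared with the same 3 control arrays, so their changes against control are not independent. The labels call the replicates biological and say nothing of separate cultures or infections. P-values measure the spread between replicate arrays, taken over all 44 arrays of the 4 lines, and that spread may be technical.

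MOLM-14 is an established monocytic AML line with a KMT2A fusion and an internal tandem duplication of FLT3. Glycogen synthase kinase 3 exists as an alpha and a beta form, made from GSK3A and GSK3B. In resting cells the kinase phosphorylates glycogen synthase and, inside the destruction complex of AXIN and APC, beta-catenin, which is then degraded. It also phosphorylates MYC and several cyclins and transcription factors, and in AML cells its inhibition has been studied for effects on proliferation and differentiation.

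The deposited values are linear intensities of Affymetrix probe sets, and changes are given as differences of log2(intensity + 16), which makes the change of a dim gene smaller than its change in intensity. Errors after ± are standard errors (SE) of the fit unless named SD, and a gene is said to have risen or fallen where its limma adjusted p was under 0.05. The array medians of the 7 arrays ran from 21.4 to 22.2 and their upper quartiles from 139.3 to 142.5. The arrays lay in plate columns 1 to 6 (controls 1 and 2 and replicate 1 of each hairpin) or 7 to 11 (control 3 and replicate 2). In MOLM-14 4164 of 12165 genes (34.2%) differed between these sets, so the set was a block in the fit. Calls within 1 set of columns come from fits that took both hairpins of a target as 1 group. The difference between the hairpins counted as error there. Controls 1 and 2, in neighbouring columns, differed by an SD of 0.109 on the log2 scale, against 0.155 for the hairpin pairs after the block was taken out. Of 14 measured markers of monocytic AML, 10 lay above the array median on all 7 arrays, and PTPRC, FLT3, MEIS1, ITGB2, CTSG and LAPTM5 were above an intensity of 100. CD14, a marker of mature monocytes, read only 8.14 to 13.3 on the GSK3A hairpin arrays and 8.89 to 10.5 on the control arrays. Markers of other cells were mostly dim: 2 of 14 erythroid, 1 of 15 megakaryocyte, 4 of 20 epithelial and stromal, 2 of 20 T and NK cell and 1 of 13 B cell genes lay above the array median on all 7 arrays. Their summed intensity on the GSK3A and control arrays ran from 1990 to 3223 and from 2363 to 2939 for the erythroid list (carried by TFRC). For the B cell list it ran from 137.0 to 207.3 and from 144.5 to 177.0, and for the megakaryocyte list from 267.7 to 428.7 and from 330.6 to 381.2. The epithelial and stromal list (VIM and ACTA2 above 100) gave 3502 to 4486 and 3706 to 3936. The T and NK cell list (NKG7 above 100) gave 305.4 to 612 and 365.7 to 468.6.

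The GSK3A transcript did not pass the test between the arrays labelled with GSK3A hairpins and the control arrays. Its brighter probe set (632_at) read 45.4 and 46.7 for hairpin 5 and 42.8 and 44.2 for hairpin 6, against 46.7, 44.3 and 46.7 for control. The groups overlapped, and the change was -0.04 ± 0.05 (adjusted p = 0.712). A dimmer probe set of GSK3A averaged 21.8 ± 2.87 on the GSK3A arrays and 20.8 ± 1.64 on the control arrays (SD, n = 4 and 3), with an adjusted p of 0.873. The GSK3B transcript read 174.4, 147.5, 162.6 and 135.5 on the GSK3A hairpin arrays, against 164.7, 170.4 and 140.2 on the control arrays, and did not pass the test (-0.01 ± 0.10, adjusted p = 0.955). By contrast, on the MOLM-14 arrays labelled with GSK3B hairpins GSK3B read 22.4 to 40.6 and had fallen by 1.97 on the log2 scale (adjusted p = 2.42e-12). The labels refer to protein blots of the knockdown, which are not analysed here. The arrays therefore do not show loss of the targeted transcript against control, and every direction below is that of the arrays labelled GSK3A hairpin 5 or 6.

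**Figure D1:**
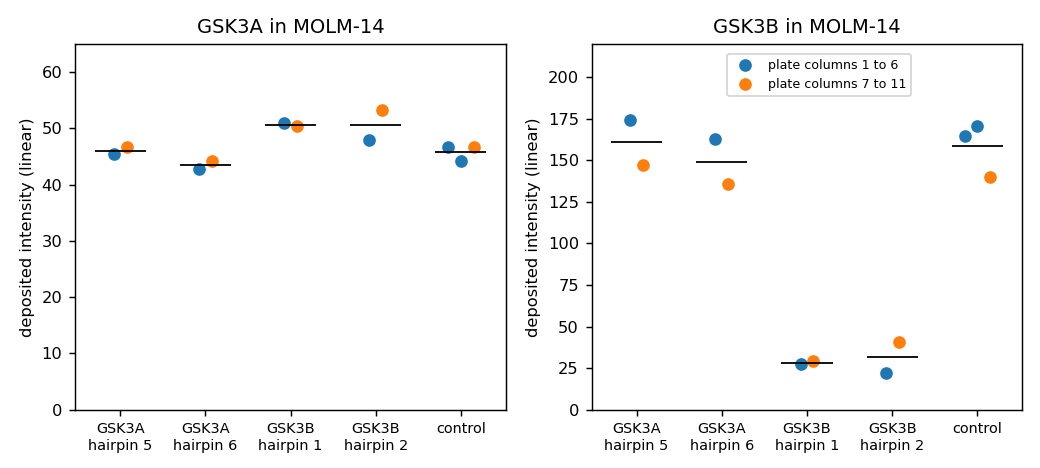
Deposited linear intensity of GSK3A (left panel) and GSK3B (right panel) on the 11 MOLM-14 arrays, by hairpin, with control at the right; points are arrays coloured by plate columns and bars are group means. GSK3A lies at 42.8 to 46.7 on its own hairpin arrays, at 48.0 to 53.3 on the GSK3B hairpin arrays and at 44.3 to 46.7 on the control arrays, while GSK3B is low only on the GSK3B hairpin arrays among the 11 shown.

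Many genes nevertheless differed. Of 12165 genes, 1770 rose (14.5%) and 1621 fell (13.3%) in GSK3A hairpin cells, 233 and 287 of them by at least 1.5-fold and 26 and 78 by at least 2-fold. The genes that fell most were those of DNA replication and mitosis, and the genes that rose most included macrophage receptors and enzymes. All 4 GSK3A arrays lay above all 3 control arrays for 1060 genes (8.71%) and below them for 976 genes (8.02%), and 860 of the risen and 802 of the fallen genes were among these. The sign was the same in plate columns 1 to 6 and 7 to 11 for 3362 of the 3391 genes that passed. These genes were picked by the fit on the same arrays, which favours such agreement, so it is no separate support. Without the block 1938 genes passed, and within columns 7 to 11, which hold 1 control array, only 52 did.

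Among genes whose arrays did not overlap between the groups, the largest rise was that of MMP2, a secreted gelatinase that cuts extracellular matrix. It read 151.3 and 211.7 for hairpin 5 and 68.9 and 91.8 for hairpin 6, against 23.7, 20.02 and 51.1 for control. The values were higher for hairpin 5, and the change was 1.49 ± 0.09 (adjusted p = 1.89e-11). CD86, the costimulatory ligand of CD28 on antigen-presenting cells, read 156.2, 66.4, 159.9 and 59.5 on the GSK3A arrays, against 37.3, 39.0 and 22.2 on the control arrays, without overlap. ARHGEF3, an exchange factor for RhoA, read 344.1, 312.7, 481.1 and 357.4, against 136.6, 158.7 and 120.4 in control. ALOX5AP, which presents arachidonic acid to 5-lipoxygenase, read 1190, 991.4, 736.3 and 750.5 in GSK3A hairpin cells, against 367.8, 343.0 and 350.2 in control cells. In these 4 genes each hairpin alone passed the test. ZMAT3, an RNA-binding p53 target, read 603.3, 574.3, 606.8 and 638.8 in GSK3A hairpin cells, against 209.9, 206.3 and 271.1 in control cells, a change of 1.36 ± 0.08 (adjusted p = 7.65e-12). The other genes among the 12 largest such rises were the histone genes H2AC6 (1.34) and H2BC5 (1.14), TREM2 (1.25), ADA2 (1.23), FUCA1 (1.23), FCGR2B (1.22) and LY96 (1.13). TUBA1A, an alpha-tubulin, rose further (1.55) but overlapped, at 1673 and 983.1 with hairpin 5 and 563.8 and 307.9 with hairpin 6, against 367.4, 406.6 and 139.2 in control. Histone genes have near-identical copies, so the signals of H2AC6 and H2BC5 may hold RNA of others.

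CDKN3, a phosphatase that acts on cyclin-dependent kinases and is itself made in cycling cells, fell most. It read 73.0 and 84.8 for hairpin 5 and 112.4 and 106.8 for hairpin 6, against 302.4, 294.6 and 328.2 for control. As for the rises, only genes without overlap were ranked, and the change was -1.60 ± 0.10 (adjusted p = 1.18e-11). MCM10, which helps to start the replicative helicase, read 38.3, 47.6, 76.4 and 62.5 on the GSK3A arrays, against 198.7, 204.8 and 163.9 on the control arrays. CDC6, which loads that helicase at origins, read 34.0, 41.0, 33.3 and 39.0, against 131.0, 116.6 and 105.3 in control. CDC6 was as low with hairpin 6 as with hairpin 5, whereas MCM10 was lower with hairpin 5. RRM2, the inducible subunit of ribonucleotide reductase, read 272.2, 365.1, 506.8 and 515.3, against 1013, 949.1 and 1039 in control, a change of -1.32 ± 0.07 (adjusted p = 2.86e-12). RASGRP2, an exchange factor for Rap1 and alone among the 12 largest falls in having no known role in the cell cycle or DNA metabolism, read 42.9, 67.6, 27.9 and 51.8, against 122.4, 112.2 and 150.7 in control. The rest of the 12 were MCM4 (-1.43), EXO1 (-1.42), CENPU (-1.38), DTL (-1.37), PLK4 (-1.36), CDC45 (-1.30) and MELK (-1.28).

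**Figure D2:**
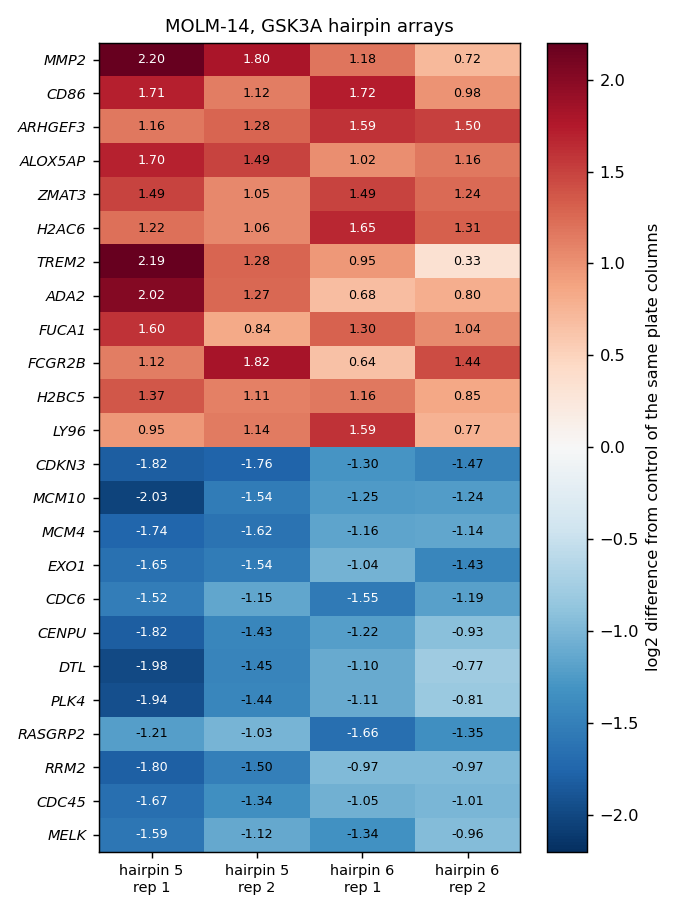
Log2 difference of each GSK3A hairpin array from the control of the same plate columns (the mean of controls 1 and 2, or control 3) for the 12 largest rises and 12 largest falls without overlap; the 4 columns are arrays and the printed numbers are the differences. Every value has the sign of its gene's change because the genes were chosen for lack of overlap. Values run from 0.33 (TREM2, hairpin 6 replicate 2) to 2.20 (MMP2, hairpin 5 replicate 1) among the rises and from -0.77 to -2.03 among the falls.

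Genes of DNA replication fell together. Of 25 measured genes of origin licensing and firing, 22 fell and 0 rose, with a median change of -0.97, against 13.3% falling and a median of 0.00 over all genes. All 6 subunits of the MCM helicase were among them: MCM7, for example, read 225.9, 245.6, 379.0 and 370.6 in GSK3A hairpin cells, against 601.1, 658.8 and 638.1 in control cells (-1.03 ± 0.06, adjusted p = 4.31e-12). ORC3 (-0.12), ORC5 (-0.01) and DBF4 (-0.19) did not pass. All 26 measured genes of DNA synthesis and nucleotide supply fell, with a median of -0.82. POLE2, the accessory subunit of DNA polymerase epsilon, read 37.5, 41.2, 62.4 and 77.6, against 143.5, 134.8 and 135.7 in control (-1.23 ± 0.06, adjusted p = 3.95e-13). The large subunit of ribonucleotide reductase, RRM1, fell by 1.02, the flap nuclease FEN1 by 1.06 and the sliding clamp PCNA by 0.58 on the log2 scale. In bulk RNA, fewer cells in S phase or mitosis and less of these transcripts per cell cannot be told apart.

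Genes of mitosis fell too. All 27 measured mitotic kinases, cyclins and spindle checkpoint genes fell (median -0.94), and so did 28 of 30 kinetochore, spindle and condensin genes (median -0.98). Over all genes 13.3% fell. The mitotic kinase CDK1 read 257.1 and 301.3 for hairpin 5 and 607.0 and 578.6 for hairpin 6, against 1057, 998.7 and 825.8 for control (-1.20 ± 0.08, adjusted p = 1.89e-11). Its partner CCNB2 read 169.1, 200.5, 288.6 and 348.4 in GSK3A hairpin cells, against 469.3, 469.7 and 478.5 in control cells. The proliferation antigen MKI67 read 164.6, 217.6, 289.8 and 415.1, against 622.0, 622.8 and 590.0 in control (-1.22 ± 0.09, adjusted p = 2.67e-10). In these 3 genes no arrays overlapped, and hairpin 5 gave the lower values. PLK1, AURKA and CDC25B, which drive entry into mitosis, fell less (by 0.33, 0.69 and 0.28 on the log2 scale). CENPI (-0.24) and SMC4 (-0.12) were the 2 members that did not pass. Within plate columns 1 to 6 and 7 to 11 the medians were -1.0 and -0.84 for licensing, -0.83 and -0.68 for DNA synthesis, -1.0 and -0.83 for mitotic kinases and -1.0 and -0.84 for kinetochore genes.

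Repair genes that act at replication forks were low as well. Of 18 genes of recombination and the Fanconi pathway 14 fell (77.8%), against 13.3% of all genes, with a list median of -0.87. BLM, a helicase, read 187.8, 276.2, 233.0 and 376.8, against 449.4, 491.9 and 628.9 in control, without overlap. FANCI fell by 1.21, CHEK1 by 1.19, BRCA1 by 0.84 and the mismatch repair gene MSH6 by 0.91 on the log2 scale. ATM, the kinase that signals double-strand breaks, rose by 0.41.

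Promoters of the falling replication and mitosis genes are shown because mitotic and S-phase genes are known to carry different short elements. The mitotic ones often hold a cell cycle homology region and CCAAT boxes, and the S-phase ones E2F sites. Of 103 falling members of the 4 lists, 86 had a RefSeq promoter (GRCh38.p14, 250 bases before to 50 after the start; the first entry of a symbol was taken), and both strands were searched. The letters TTTGAA stood in 21 of 25 promoters of falling kinetochore genes (84%), in 10 of 20 of mitotic kinases (50%), in 1 of 23 of DNA synthesis genes (4.35%) and in 0 of 18 of licensing genes, against 10.9% of 9711 array genes with a promoter and 15.2% of all 35116 promoters. TTTGGCGC or TTTCCCGC, the E2F letters searched, stood in 8%, 5%, 34.8% and 44.4% of the same sets, against 3.34% of array genes and 2.27% of all promoters. CCAAT stood in 80%, 75%, 39.1% and 66.7%, against 37.4% and 34.6%. A match of letters is a description and no evidence of binding. The 6 windows below were chosen as examples that hold the letters. Other falling genes lacked them near the start: KIF2C and MELK had no TTTGAA in the promoter, CDK1 had it 161 bases before the start and PLK4 38 after, and MCM10, CDC45, FEN1, RRM2 and RRM1 had no E2F letters. The windows run from 100 bases before to 40 after the start, 5′ to 3′ on the gene's strand, with the searched letters in capitals on either strand (as the reverse complement where the match is on the other strand). Adjacent or overlapping matches appear as 1 run in capitals in HMMR and MKI67. They belong to CCNB2 (chr15:59105046-59105185, plus strand), KIF11 (chr10:92593030-92593169, plus), HMMR (chr5:163460532-163460671, plus), MKI67 (chr10:128126384-128126523, minus), CDC6 (chr17:40287779-40287918, plus) and POLE2 (chr14:49688175-49688314, minus).
CCNB2: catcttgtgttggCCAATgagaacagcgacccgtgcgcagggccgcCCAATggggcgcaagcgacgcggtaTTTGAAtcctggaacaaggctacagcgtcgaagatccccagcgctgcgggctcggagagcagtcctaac
KIF11: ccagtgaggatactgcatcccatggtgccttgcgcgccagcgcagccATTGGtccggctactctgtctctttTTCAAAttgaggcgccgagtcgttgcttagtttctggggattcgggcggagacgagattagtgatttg
HMMR: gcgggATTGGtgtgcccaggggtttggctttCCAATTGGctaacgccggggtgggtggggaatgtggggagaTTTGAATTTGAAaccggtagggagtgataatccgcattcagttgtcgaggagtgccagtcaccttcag
MKI67: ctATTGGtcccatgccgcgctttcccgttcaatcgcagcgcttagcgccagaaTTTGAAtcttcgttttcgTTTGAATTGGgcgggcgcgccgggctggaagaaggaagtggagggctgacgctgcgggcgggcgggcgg
CDC6: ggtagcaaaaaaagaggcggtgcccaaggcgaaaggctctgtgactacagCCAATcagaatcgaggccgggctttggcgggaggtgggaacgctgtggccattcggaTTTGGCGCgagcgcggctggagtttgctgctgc
POLE2: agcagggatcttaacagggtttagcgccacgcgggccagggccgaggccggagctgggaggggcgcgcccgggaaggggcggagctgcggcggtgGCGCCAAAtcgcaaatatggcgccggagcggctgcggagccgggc
In these windows the 4 mitotic genes hold TTTGAA at 22 to 47 bases before the start, and CDC6 and POLE2 hold an E2F run and no TTTGAA. KIF11, a motor that separates the spindle poles, fell by 1.09, and HMMR, a spindle-associated protein, by 1.13 on the log2 scale.

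The regulators of G1 split. Of 19 genes of G1 cyclins, E2F and RB proteins 8 fell (42.1%) and 1 rose (5.26%), with a median of -0.14. Over all genes 13.3% fell and 14.5% rose. CCNE1, the cyclin that drives S phase entry, read 26.1, 59.5, 37.8 and 54.8 in GSK3A hairpin cells, against 90.9, 89.2 and 148.7 in control cells (-1.21 ± 0.07, adjusted p = 8.29e-12). CCNE2 fell by 1.10, MYBL2 by 1.05 and E2F8 by 0.82, whereas RB1 (0.04), CDK6 (-0.12) and E2F1 (-0.17) did not pass. CCND1 read 12.5 to 41.4 on the GSK3A arrays and 15.9 to 23.1 on the control arrays (adjusted p = 0.841). Of 7 CDK inhibitors, CDKN1A (p21), a p53 target that stops cyclin-dependent kinases, read 1407, 1290, 1025 and 1031, against 672.6, 660.6 and 882.7 in control. Its 4 hairpin values lay above all control values (0.68 ± 0.13, adjusted p = 0.00021). CDKN1B (p27) was lower by 0.41 on the log2 scale (adjusted p = 0.00112) with overlapping arrays, and its call was lost without the block (adjusted p = 0.0654), within columns 1 to 6 (0.0746) and on the 7 arrays (0.052).

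Targets of the tumour suppressor p53 rose in part: 12 of 22 rose (54.5%) and 1 fell (4.55%), with a median of 0.26. Over all genes 14.5% rose and 13.3% fell. BAX, a pore-forming promoter of apoptosis, read 469.9, 448.5, 489.5 and 463.4, against 282.0, 301.8 and 359.3 in control (0.55 ± 0.06, adjusted p = 5.09e-08). SESN1, which restrains mTORC1, read 475.8, 657.7, 482.9 and 705.4, against 278.0, 260.7 and 475.7 in control. XPC, a sensor of DNA damage, rose by 0.43, GADD45A by 0.51 and MDM2, the ligase that limits p53, by 0.28. PMAIP1 fell by 0.46, and BBC3 (0.08), FAS (0.13) and PPM1D (0.09) did not pass. The median was 0.28 for hairpin 5 and 0.25 for hairpin 6, and 0.31 and 0.29 within the 2 sets of plate columns. Of 26 BCL2 family and caspase genes 12 rose (46.2%) and 5 fell (19.2%). Within plate columns 1 to 6, 4 rose and 1 fell, and without hairpin 5 replicate 1, 9 rose and 5 fell. CASP8 rose by 0.52 and BCL2, the inhibitor of apoptosis, read 215.3, 285.4, 320.6 and 284.4, against 471.0, 519.4 and 356.9 in control (-0.62 ± 0.10, adjusted p = 1.78e-05).

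Genes of monocytes and macrophages rose unevenly. Of 46 receptors 24 rose and 0 fell (median 0.21), and of 45 enzymes and secreted proteins 28 rose and 2 fell (median 0.28). With hairpin 5, 25 receptors and 30 enzymes rose and 0 of either fell (medians 0.35 and 0.40). With hairpin 6, 12 receptors rose and 2 fell (median 0.04), and 15 enzymes rose and 4 fell (median 0.14). Over all genes 14.5% rose, 15.0% with hairpin 5 and 12.2% with hairpin 6. Tested directly, 17 receptors and 24 enzymes were higher in hairpin 5 (10.5% of all genes), and 1 and 0 were lower (11.1%). Without the block 15 receptors and 16 enzymes rose, and 8 and 9 did within columns 1 to 6. TREM2, a lipid receptor of macrophages, read 166.6 and 96.1 for hairpin 5 and 63.9 and 43.2 for hairpin 6, against 26.1, 24.7 and 31.3 for control. Its signalling adaptor TYROBP read 849.5, 541.3, 588.5 and 461.7, against 326.3, 316.9 and 317.0 in control (0.91 ± 0.09, adjusted p = 2.1e-08). RNASE6, a secreted ribonuclease of monocytes, read 329.8, 230.6, 298.0 and 275.8, against 148.3, 136.6 and 123.4 in control, about as high with hairpin 6 as with hairpin 5. CD36, the scavenger receptor, rose by 0.95, IL10RA by 0.91, HMOX1 by 0.96 and CYBB, the catalytic subunit of the phagocyte oxidase, by 0.75. HMOX1 and CYBB passed with hairpin 5 (1.67 and 1.31) and not with hairpin 6 (0.25 and 0.19). S100A9 and S100A8, the subunits of calprotectin, fell by 0.55 and 0.33. FPR1 (-0.01), TLR4 (0.04), CD68 (-0.01), MRC1 (-0.05) and CD14 (0.01) did not pass, and CSF1R, the receptor of macrophage colony-stimulating factor, was higher by only 0.23 (adjusted p = 0.0209). CD68 and CSF1R were dim in control, at means of 15.8 and 18.9, where adding 16 makes changes smaller. The call of CSF1R was lost without control 1 (adjusted p = 0.079), control 2 (0.0752), hairpin 5 replicate 1 (0.136) or hairpin 6 replicate 1 (0.238), within columns 1 to 6 (0.0584), with the replicate number as block (0.087), on the 11 (0.0949) and 7 arrays (0.0811) and with controls 1 and 2 averaged (0.0867).

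Over all genes 14.5% rose and 13.3% fell, and against these shares adhesion molecules, granule proteins and lineage factors gave mixed counts. Of 19 leukocyte integrins and partners 9 rose (47.4%) and 1 fell (median 0.17), but 2 rose within plate columns 1 to 6. ICAM3, a ligand of LFA-1, read 786.7, 659.1, 603.3 and 829.4, against 341.4, 362.1 and 438.1 in control. ITGAM (CD11b) read 409.6 and 279.6 for hairpin 5 and 136.0 and 139.6 for hairpin 6, against 176.1, 177.4 and 169.2 for control. It rose with hairpin 5 (0.91) and did not pass with hairpin 6 (-0.28, adjusted p = 0.121). Of 15 primary granule proteins 2 rose (13.3%) and 1 fell: MPO, the peroxidase of immature myeloid cells, read 33.6, 33.5, 41.8 and 30.6, against 118.1, 122.7 and 77.8 in control (-1.28 ± 0.11, adjusted p = 1.83e-09). MS4A3 rose by 0.95 and the protease of the complement system CFD by 0.74 (without the block adjusted p = 0.3), while ELANE (0.09) and CTSG (-0.13) did not pass. Of 38 myeloid transcription factors 11 rose (28.9%) and 5 fell (13.2%), but 3 fell without hairpin 5 replicate 1. CEBPD rose by 0.60, TFEC by 0.59 and BCL6 by 0.59, GFI1 fell by 0.39, and SPI1 (0.09) and IRF8 (-0.09) did not pass. SPI1 was dim, at a mean of 17.5 in control. Of 24 stem and progenitor regulators 1 rose (LMO2, 0.40) and 5 fell, among them MYB by 0.16 and HMGA2 by 0.58. Without hairpin 5 replicate 1 or control 1 the fallen genes of this list numbered 2, and on the 11 MOLM-14 arrays alone 0. The MYB call was lost without the block (adjusted p = 0.43), with the replicate number as block (0.239), with the mean of probe sets (0.363), on the 11 (0.0564) and 7 arrays (0.092) and without control 1 (0.0929). HMGA2 was lost on the 11 (0.106) and 7 arrays (0.142). MEIS1, a partner of HOXA9 in KMT2A-rearranged leukemia, read 179.4, 266.6, 161.7 and 219.4, against 229.2, 221.1 and 258.3 in control. The groups overlapped (-0.26, adjusted p = 0.0166). The call was lost without the block (adjusted p = 0.511), with the replicate number as block (0.499), within columns 1 to 6 (0.104) and on the 11 (0.138) and 7 arrays (0.0633). It was also lost without control 1 (0.111), control 2 (0.0787) or hairpin 5 replicate 1 (0.0761), and with controls 1 and 2 averaged (0.105).

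Lysosomal genes rose with either hairpin. Of 41 lysosome and autophagy genes 31 rose and 1, LAMP2, fell (median 0.32, with 0.40 for hairpin 5 and 0.23 for hairpin 6). Over all genes 14.5% rose and 13.3% fell. Without the block 26 lysosome genes rose, and 14 did within columns 1 to 6, against 1011 and 539 of all 12165 genes. LIPA, the acid lipase, read 2906, 2196, 1920 and 1633 on the GSK3A arrays, against 1430, 1377 and 1215 on the control arrays (0.72 ± 0.05, adjusted p = 4.2e-11). ASAH1, the acid ceramidase, read 1384, 890.4, 1362 and 816.9, against 705.5, 731.0 and 545.2 in control. All 4 hairpin arrays were above the controls in both genes. FUCA1, which removes fucose from glycoproteins, read 965.4, 766.2, 782.1 and 852.0, against 303.3, 309.7 and 433.1 in control. IDS, which degrades heparan and dermatan sulfate, was 420.7 and 465.9 with hairpin 5 but 84.6 and 140.2 with hairpin 6, against 68.7, 55.2 and 99.4 in control. TFEB, a transcription factor of lysosomal genes, rose by 0.32.

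Genes of serine, folate and amino acid metabolism fell. Of 20 serine, folate and one-carbon enzymes 14 fell and 0 rose (median -0.33). Over all genes 13.3% fell and 14.5% rose. For hairpin 5 alone 13.6% of all genes fell and 15.0% rose, and for hairpin 6 alone 10.8% fell and 12.2% rose. MTHFD2, the mitochondrial folate enzyme, read 652.6, 768.2, 687.1 and 676.3 in GSK3A hairpin cells, against 1784, 1778 and 1685 in control cells (-1.25 ± 0.07, adjusted p = 2.77e-12). The hairpins gave the same low level. PHGDH and PSAT1, which make serine from a glycolytic intermediate, fell by 1.04 and 1.22 on the log2 scale. PAICS, an enzyme of purine synthesis, read 681.4 and 820.7 with hairpin 5 and 446.3 and 543.2 with hairpin 6, against 1098, 1101 and 1089 in control. Of 28 ATF4 targets and amino acid transporters 16 fell and 1 rose (median -0.36). With hairpin 5, 9 fell and 4 rose (median -0.23), and with hairpin 6, 19 fell and 0 rose (median -0.46). Tested directly, 11 of the 28 were higher and 2 lower in hairpin 5 than in hairpin 6, against 10.5% and 11.1% of all genes. The list median was -0.55 within plate columns 1 to 6 and -0.15 within columns 7 to 11. The glutamine transporter SLC1A5 fell by 0.71, the alanyl-tRNA synthetase AARS1 by 0.65 and asparagine synthetase ASNS by 0.74, while ATF4 itself (-0.11) and DDIT3 (-0.12) did not pass. Of 36 genes of the MYC network and ribosome biogenesis 18 fell and 1 rose (median -0.14), but 10 fell without hairpin 5 replicate 1, 9 without the block and 1 within columns 1 to 6. MYC read 3136, 3042, 3228 and 2637, against 4402, 4972 and 3349 in control, without overlap (-0.33 ± 0.09, adjusted p = 0.00658). The MYC call was lost without the block (adjusted p = 0.25), within columns 1 to 6 (0.0867) and without control 2 (0.0535) or hairpin 5 replicate 1 (0.106).

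Of 14 genes of the GSK3 paralogs and the destruction complex 5 rose (35.7%) and 1 fell (7.14%), against 14.5% and 13.3% of all genes, with a median of 0.01. Without replicate 1 of hairpin 5 or of hairpin 6 the risers numbered 3. FBXW11, a ubiquitin ligase receptor for beta-catenin, read 138.4, 125.3, 149.6 and 119.7, against 113.0, 86.0 and 86.9 in control (0.48 ± 0.06, adjusted p = 3.19e-07). CTNNB1, which encodes beta-catenin, was higher by 0.25 (adjusted p = 0.00481), with 711.2, 676.8, 827.0 and 804.9 on the GSK3A arrays and 618.2, 628.0 and 659.7 on the control arrays. The call of CTNNB1 was lost within columns 1 to 6 (adjusted p = 0.0756) and without hairpin 5 replicate 1 (0.0628). FRAT1, a GSK3-binding protein, was lower by 0.31 with overlapping arrays, and did not pass without the block (adjusted p = 0.129). Among 14 target genes of Wnt signalling, 3 passed upwards (21.4%) and 2 downwards (14.3%), with a median of 0.02, and 1 of the falling 2 was BIRC5 (survivin, also a mitotic gene, -0.99). LEF1 was dim, at 6.64 to 8.30 on the GSK3A arrays and 7.004 to 7.68 on the control arrays (adjusted p = 0.992). Glycogen synthase GYS1 rose by 0.33, and of 17 genes of glycogen metabolism 6 rose and 2 fell, with a median of 0.00.

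Of 31 glycolysis and hypoxia genes 5 rose (16.1%) and 3 fell (9.68%), and of 33 respiratory chain subunits 6 rose (18.2%) and 7 fell (21.2%), against 14.5% and 13.3% of all genes. Without hairpin 5 replicate 1, 3 genes rose in each of these lists, and 3 respiratory genes did without control 1. Of 23 NRF2 targets 10 rose (43.5%) and 0 fell, and without the block 4 rose. NQO1, a quinone reductase, read 209.0 and 229.5 in plate columns 1 to 6 and 545.4 and 617.8 in columns 7 to 11 with the GSK3A hairpins, against 101.6 and 109.7 in columns 1 to 6 and 301.1 in columns 7 to 11 for control. Its values overlapped between groups over the 7 arrays but not within either set of columns (0.96 ± 0.08, adjusted p = 8.44e-10), and it did not pass without the block (adjusted p = 0.0855). Of 43 interferon-stimulated genes 13 rose (30.2%) and 1, USP18, fell (2.33%), but 1 rose within columns 1 to 6. With hairpin 5, 16 of them rose and 1 fell, and with hairpin 6, 6 rose and 4 fell. Of 32 NF-kB and inflammatory genes 6 rose (18.8%) and 3 fell (9.38%), against 14.5% and 13.3% of all genes. Without the block 5 rose and 0 fell, and within columns 1 to 6 the counts were 1 and 1. TNF fell by 0.72 and TNFAIP2 rose by 0.80. Among markers of other cells, 0 of 14 erythroid and 0 of 13 B cell genes passed, and 3 of 15 megakaryocyte genes (ITGA2B, PF4 and CD9) rose. The list had 1 riser without control 2, hairpin 5 replicate 1 or hairpin 6 replicate 2, and 0 on the 7 arrays alone. Of 20 T and NK cell genes 1 fell, and of 20 epithelial and stromal genes 1 rose and 2 fell, including ACTA2 (0.69) and KRT18 (-0.68). The part of these genes in the other results was not tested.

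**Figure D3:**
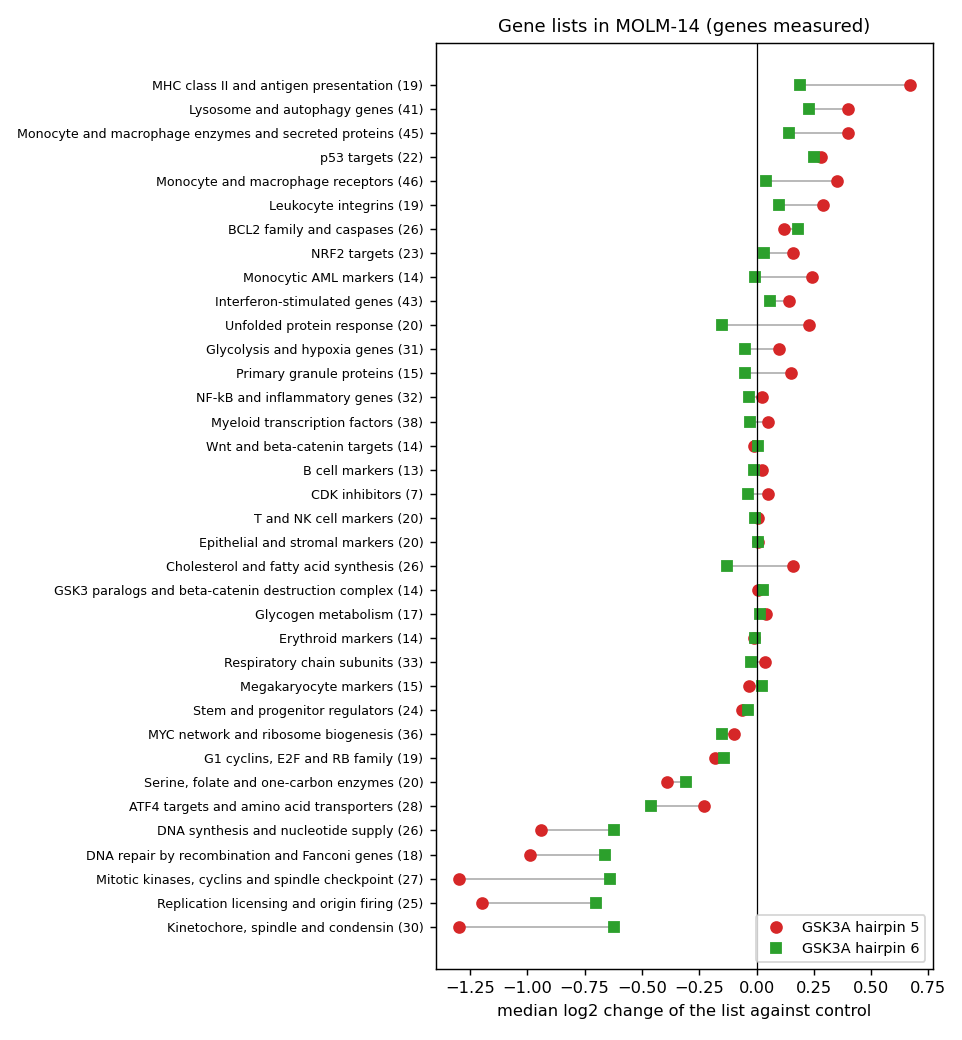
Median log2 change against control of the measured members of 36 gene lists in MOLM-14, for GSK3A hairpin 5 (red circles) and GSK3A hairpin 6 (green squares), joined by a grey line; the number of genes measured stands in brackets. Both hairpins share the 3 control arrays. The 5 lists of replication, repair and mitosis lie at -0.62 or below with either hairpin, and those of MHC class II (0.67 and 0.19), unfolded protein response (0.23 and -0.15) and macrophage receptors (0.35 and 0.04) lie furthest apart among the rest.

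The hairpins differed from each other. Against control, hairpin 5 had 1820 genes higher (15.0%) and 1659 lower (13.6%), and hairpin 6 had 1488 higher (12.2%) and 1317 lower (10.8%). The direct test, which uses no control array, found 1275 genes higher (10.5%) and 1345 lower (11.1%) in hairpin 5 than in hairpin 6. Without replicate 1 of hairpin 5, 2294 genes passed for hairpin 5 in place of 3479. The cell cycle lists fell further with hairpin 5: 19 of 25 licensing genes, 23 of 27 mitotic kinases and 26 of 30 kinetochore genes were lower in hairpin 5 than in hairpin 6, with median differences of -0.50, -0.63 and -0.68. All the same, 21, 25 and 28 genes of these lists also fell with hairpin 6 alone.

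MHC class II genes were among the largest differences upwards. HLA-DPA1 read 419.1 and 186.2 with hairpin 5, against 17.9 and 14.8 with hairpin 6 (difference 3.26 ± 0.13, adjusted p = 2.8e-14), and 42.8, 32.1 and 16.2 in control. HLA-DRA read 1229 and 264.6 with hairpin 5, against 120.4 and 41.5 with hairpin 6, and 154.6, 134.9 and 47.0 in control. HLA-DRB1 read 1849 and 801.5 with hairpin 5, against 207.9 and 190.1 with hairpin 6, and 226.0, 227.4 and 129.5 in control. So the rise in the mean of the hairpins came from hairpin 5, while hairpin 6 lay within or below the control range for HLA-DPA1 and HLA-DRA. HLA-DRB1 has near-identical copies, so its probe sets may read several of them. In the mean of the hairpins HLA-DRA did not pass without the block (adjusted p = 0.246). Of 19 genes of MHC class II and antigen presentation 14 rose in the mean of the hairpins (median 0.50; 9 without the block), 14 with hairpin 5 (0.67) and 7 with hairpin 6 (0.19). Of all 12165 genes 14.5% rose in the mean, 15.0% with hairpin 5 and 12.2% with hairpin 6, and 1011 genes rose in the mean without the block. Their chaperone CD74 changed by 1.48 with hairpin 5 and 0.02 with hairpin 6, and CIITA, the factor that switches class II genes on, did not pass (-0.02).

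AGT, the angiotensin precursor, read 463.4 and 403.3 with hairpin 5, against 38.0 and 65.2 with hairpin 6, and 41.4, 43.4 and 81.8 in control. FGR, a Src family kinase of myeloid cells, read 382.3 and 230.3 with hairpin 5, against 37.6 and 60.7 with hairpin 6, and 72.5, 82.2 and 78.1 in control. FGR thus rose with hairpin 5 (1.75) and fell with hairpin 6 (by 0.58 on the log2 scale). In the other direction, the neurofilament gene NEFH read 26.6 and 33.9 with hairpin 5, against 131.8 and 136.4 with hairpin 6, and 121.0, 124.4 and 122.3 in control. CNN2, a calponin, and EPS8, an actin regulator, were likewise low with hairpin 5 alone, at 50.6 to 53.4 and 31.3 to 40.05, against 179.4 to 197.8 and 115.0 to 122.6 with hairpin 6. CYP1B1, a cytochrome P450 induced through the aryl hydrocarbon receptor, read 88.5 and 70.4 with hairpin 5, against 287.4 and 217.8 with hairpin 6, and 106.6, 100.6 and 94.5 in control. It fell by 0.26 with hairpin 5 and rose by 1.24 with hairpin 6. NPY, a neuropeptide, was lower with hairpin 5 than with hairpin 6 by 1.38 on the log2 scale.

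Stress and lipid genes also parted. Over all genes 15.0% rose and 13.6% fell with hairpin 5, and 12.2% rose and 10.8% fell with hairpin 6. Of 20 genes of the unfolded protein response 11 rose and 1 fell with hairpin 5 (median 0.23), and 0 rose and 9 fell with hairpin 6 (median -0.15). The direct test put 17 of the 20 higher in hairpin 5, against 10.5% of all genes. HYOU1, a chaperone of the endoplasmic reticulum, read 415.8 and 491.3 with hairpin 5, against 207.3 and 296.7 with hairpin 6, and 233.1, 225.1 and 321.9 in control. XBP1, the transcription factor of this response, was low with either hairpin: 405.8 and 363.3 with hairpin 5 and 287.9 and 165.4 with hairpin 6, against 744.4, 784.0 and 461.7 in control. Of 26 genes of cholesterol and fatty acid synthesis 10 rose and 3 fell with hairpin 5, and 1 rose and 7 fell with hairpin 6. In the direct test 12 of these were higher in hairpin 5.

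**Figure D4:**
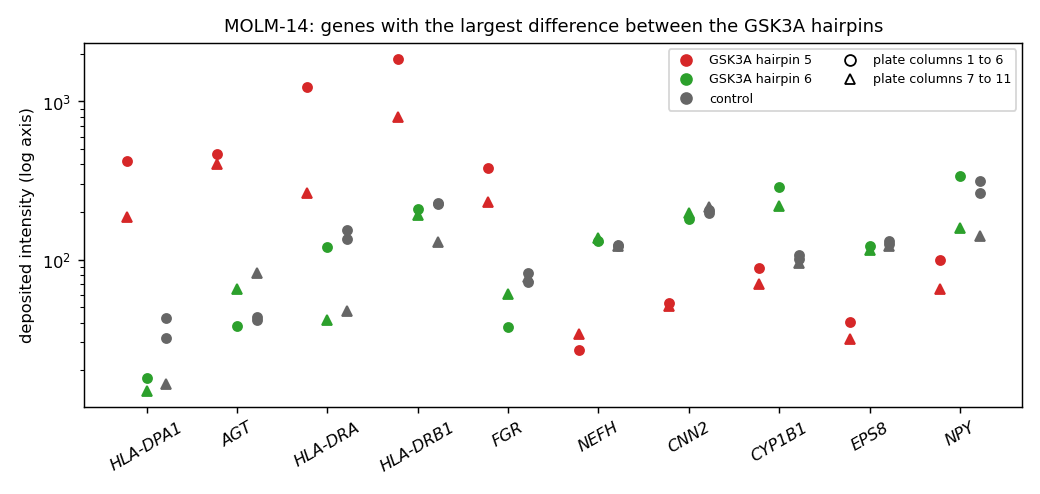
Deposited intensity (log axis) of the 5 genes furthest above and the 5 furthest below in GSK3A hairpin 5 against GSK3A hairpin 6, with control in grey; circles are arrays of plate columns 1 to 6 and triangles of columns 7 to 11. For HLA-DPA1, AGT, HLA-DRA, HLA-DRB1 and FGR both hairpin 5 arrays lie above all hairpin 6 and control arrays, and for NEFH, CNN2, CYP1B1, EPS8 and NPY both lie below them.

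The fall of cell cycle genes was tested against the other AML lines, HL-60, THP-1 and U937, by the difference of the GSK3A change in MOLM-14 from the mean GSK3A change of the other 3. Over all genes 1040 were higher (8.55%) and 951 lower (7.82%) in this test. Of the cell cycle lists, 22 of 25 licensing, 24 of 26 DNA synthesis, 26 of 27 mitotic kinase and 29 of 30 kinetochore genes were lower. The list medians in MOLM-14 were -0.97, -0.82, -0.94 and -0.98, against -0.04, 0.01, 0.13 and 0.23 in HL-60, -0.02, 0.00, 0.15 and 0.12 in THP-1, and -0.12, -0.05, 0.02 and 0.08 in U937. For RRM2 the change was -1.32 in MOLM-14, against 0.26 in HL-60, 0.29 in THP-1 and 0.07 in U937. PLK4 and ASPM, which act at centrioles and spindle poles, and CCNE2 gave differences of -1.45, -1.44 and -1.48 in this test.

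The rises of ZMAT3, MMP2 and p53 targets differed from the other lines too. ZMAT3 changed by 1.36 in MOLM-14, against 0.08 in HL-60, -0.14 in THP-1 and 0.11 in U937 (difference 1.34 ± 0.09, adjusted p = 2.63e-10). Of the 22 p53 targets 12 were higher in the test between lines and 1 was lower, against 8.55% and 7.82% of all genes. Of 41 lysosome genes 24 were higher, although in U937 and HL-60 26 and 18 of them rose on their own, with medians of 0.28 and 0.16. In THP-1 3 of them rose and 4 fell, with a median of -0.01. Of 46 macrophage receptors 9 were higher and 4 lower, and the median change of this list was 0.21 in MOLM-14, against 0.30 in HL-60, 0.06 in THP-1 and 0.18 in U937. ATF4 targets were lower for 20 of 28 genes, and their median was -0.36 in MOLM-14, against -0.00 in HL-60, 0.23 in THP-1 and -0.01 in U937. For the MYC network only 1 of 36 genes differed, with medians of -0.14 in MOLM-14, against -0.26 in HL-60, 0.04 in THP-1 and -0.20 in U937. The GSK3A transcript itself was lower in HL-60 GSK3A hairpin cells (by 0.21, adjusted p = 0.00388) but did not pass in THP-1 or U937 (adjusted p = 0.773 and 0.237), and the part of the knockdown in these differences was not tested.

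**Figure D5:**
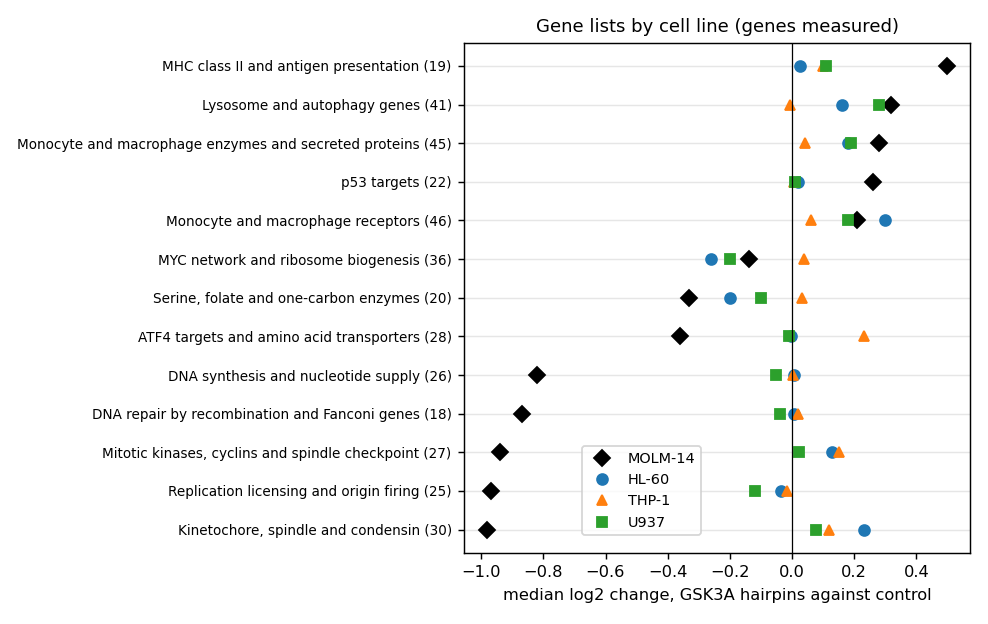
Median log2 change of GSK3A hairpin arrays against control of the same line for 13 gene lists, in MOLM-14 (black diamonds) and the other 3 lines (coloured points); genes measured stand in brackets. The 5 lists of replication, repair and mitosis lie between -0.98 and -0.82 in MOLM-14 and between -0.12 and 0.23 in the other lines.

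GSK3A and GSK3B hairpins in MOLM-14 were compared directly, without the control arrays. Of all genes 1690 were higher (13.9%) and 1725 lower (14.2%) with GSK3A hairpins. The cell cycle lists were again on the low side, with 21 of 25 licensing, 25 of 26 DNA synthesis, 27 of 27 mitotic kinase and 29 of 30 kinetochore genes lower. CDKN3 averaged 94.3 ± 18.5 with GSK3A hairpins and 290.4 ± 41.5 with GSK3B hairpins (SD, n = 4 each), a difference of -1.48 ± 0.09 (adjusted p = 1.07e-11). CENPU, a centromere protein, averaged 237.1 ± 59.3 with GSK3A hairpins and 628.0 ± 21.5 with GSK3B hairpins, where it did not differ from control (adjusted p = 0.995). GPX7, a peroxidase of the endoplasmic reticulum, averaged 127.2 ± 64.2 with GSK3A hairpins and 301.7 ± 27.9 with GSK3B hairpins. Upwards, GSK3B itself led (1.96, the GSK3B hairpins' own target), followed by CYFIP2 (1.56), FCGR2B (1.54), TUBA1A (1.46) and ADA2 (1.46). CYFIP2, part of the WAVE complex that nucleates actin branches, averaged 244.7 ± 102.2 with GSK3A hairpins and 70.7 ± 18.6 with GSK3B hairpins. CA2, carbonic anhydrase, averaged 20.7 ± 18.5 with GSK3A hairpins and 71.3 ± 21.4 with GSK3B hairpins, with control between at 37.7 ± 16.4. Of the GSK3A arrays, hairpin 5 replicate 1 read 48.1 and the others 8.58 to 15.3. The CA2 call of GSK3A hairpins against control was lost on the 11 MOLM-14 arrays (limma adjusted p = 0.0822) and on the 7 arrays (0.147). Of the p53 targets 16 of 22, of the lysosome genes 27 of 41 and of the macrophage receptors 23 of 46 were higher with GSK3A hairpins. The GSK3A transcript was lower with GSK3A hairpins, at 42.8 to 46.7, against 48.0 to 53.3 with GSK3B hairpins, without overlap (-0.13 ± 0.05, adjusted p = 0.0331). Against control, GSK3A passed with neither target's hairpins (adjusted p = 0.712 and 0.324), whereas GSK3B was low with its own, so the comparison sets hairpins side by side and not matched losses of the kinases.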

How the data were processed

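RNA was measured on Affymetrix arrays of 22277 probe sets. The table deposited by the authors holds linear intensity values, summarised per probe set, with array medians and quartiles already alike; the submitters' processing notes name RMA and MAS5 with no versions, and which of them made this table is not given in the sources used here. It carries no detection calls, and precision is limited by how many arrays there are. Of the probe sets, 19724 named 1 gene in the platform annotation, 568 several and 1923 none, and 62 were controls. Gene symbols were updated through RefSeq for 19707 of these. The brightest probe set stood for each of 12165 genes, 4505 of which had more than 1.

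Values were quantile-normalized over the 44 arrays, and log2(intensity + 16) was fitted with limma 3.58.1 in R 4.3.3 (lmFit and eBayes, two-sided, Benjamini-Hochberg over all genes, threshold 0.05) on 20 groups with plate columns as a block in each line (20 residual degrees of freedom). Printed array values are those deposited. Samples were grouped by their labels. Arrays of the same plate columns deviated together in MOLM-14 (correlations of 0.561 to 0.753), and the block is part of the rule that defines these arrays. The test was checked on simulated data. Alternatives were other normalizations, pseudocounts, probe set rules, blocks and array sets, and each MOLM-14 array left out.

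Genes named with array values are GSK3A and GSK3B, the 12 largest rises and falls without overlap, the 4 list members with the smallest adjusted p, the 5 largest differences each way in the other comparisons, and a fixed set of 11. Other list members named were chosen after their values were seen. The arrays and the 36 lists (836 of 940 genes measured) were chosen with earlier results of these data known.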

Additional observations from a re-analysis of the deposited data

Results flagged for a closer look

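1 array stood apart for 1 gene. NDUFA2, a subunit of respiratory complex I, read 882.5 on the array of GSK3A hairpin 6 replicate 1, against 974.9 to 1045 on the other 3 GSK3A hairpin arrays. Of 155 genes examined this way 1 was picked out, and chance picks out about 1 in 20 groups.

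The GSK3A change in MOLM-14 differed from the mean change of HL-60, THP-1 and U937, by the interaction term of the limma fit, most strongly for 10 genes. It was higher in MOLM-14 for H2AC6 (difference 1.38), ZMAT3 (1.34), MMP2 (1.30), H2BC5 (1.24) and HLA-DRB1 (1.21). It was lower for RRM2 (-1.53), EGR1 (-1.50), CCNE2 (-1.48), PLK4 (-1.45) and ASPM (-1.44). EGR1, an immediate early transcription factor, changed by 0.39 in HL-60, 0.88 in THP-1 and -0.77 in U937, and its difference did not pass without the block (adjusted p = 0.343), nor did that of HLA-DRB1 (adjusted p = 0.0939).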

How the results depend on the processing

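With no replicate block the number of genes past the test fell to 1938 (1011 higher, 927 lower) for GSK3A hairpins against control in place of 3391, to 2110 for hairpin 5, 1209 for hairpin 6, 1198 for hairpin 5 against hairpin 6, 718 for MOLM-14 against the other lines and 1975 for GSK3A against GSK3B hairpins. Within plate columns 1 to 6 the counts were 1161 (539 and 622), 454 against the other lines and 825 against GSK3B, and within columns 7 to 11, with 1 control array, 52 (23 and 29), 2 and 315. Single hairpins were not fitted within 1 set of columns. Both hairpins of a target formed 1 group there, so a call lost in these fits may also reflect a difference between the hairpins. On the 11 MOLM-14 arrays GSK3A against control had 2409 genes, hairpin 6 had 1716 and hairpin 5 against hairpin 6 had 1644. On the 7 arrays these counts were 2377, 1699 and 1596. The replicate number of the labels as replicate block gave 2909 genes for GSK3A against control, and under it CD9 turned to -0.35 (adjusted p = 0.316). Averaging controls 1 and 2, an alternative chosen after seeing the data, gave 2890. Leaving out 1 array gave 2763 to 3482 genes for GSK3A against control (1446 to 1817 higher, 1317 to 1665 lower), 2294 to 3590 for hairpin 5, 2033 to 2917 for hairpin 6, 1790 to 2759 between the hairpins, 1547 to 2127 against the other lines and 2845 to 3454 against GSK3B. Of 183 values of single genes 33 kept direction and call in all 24 alternatives, 111 in all other than the 7 arrays and columns 7 to 11, and 1 reversed. The cause of these shifts was not tested.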
